A study of Mus musculus with 6 samples.

Results

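The genes of the DNA replication machinery were examined in cells sorted from the neonatal mouse prostate, in which an LSC GFP+ population was set against an LSC GFP- one. The set was defined by 59 gene names, covering the MCM proteins, the licensing and firing of origins, the polymerases and other fork proteins, the supply of nucleotides, the E2F transcription factors, and chromatin assembly. Of these names, 58 were carried by the array. The remaining name, Cdc45l, is an older name of Cdc45, which was found. The 58 genes were read by 73 of the 55681 probes, and 68 of these probes, at least 1 for each gene, passed the filter on signal above background together with 37005 probes in all. The representative probe of each gene was the brightest of those tested, and testing required a signal well above background in every sample of one population or of both.

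Both populations came from prostates of untreated 6-day-old male FVB/N mice. All samples, LSC GFP- ones included, carried the transgene Tg 11.5kb-GFP, in which GFP is driven by the promoter of s-SHIP, a short form of the SHIP1 gene product. Cells were sorted as lineage negative (Ter119, CD31 and CD45), Sca-1 positive and CD49f positive, which together define the LSC gate, and were split by GFP into LSC GFP+ and LSC GFP- cells, with 3 samples each. GFP fluorescence thus reports on the activity of the s-SHIP promoter and does not by itself name a cell type. RNA was amplified before labelling and each sample was hybridised to 1 array. Values below are log2 signals relative to the 75th percentile of the same array, and a difference is LSC GFP+ minus LSC GFP-.

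Before a cell divides, every origin of replication is bound by the origin recognition complex, on which Cdc6 and Cdt1 load the ring-shaped MCM helicase. The kinase Cdc7 with its partner Dbf4, together with Cdc45 and the GINS complex, then turns the loaded ring into a moving helicase, and polymerases, the clamp Pcna with its loader, and the single-strand binding protein RPA copy the opened DNA. Many of these genes are transcribed as cells enter S phase under control of E2F factors, so their transcripts are commonly read as a sign of cycling cells. In sorted populations measured in bulk, a larger share of cycling cells and more transcript per cell cannot be told apart.

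Sequence around the gene starts is shown first, because E2F sites are what many of these genes are known to share. RefSeq promoters (GRCm38.p6), each 250 bases before to 50 bases after the gene start, were at hand for 48 of the 58 genes. They were searched on both strands for the E2F-type motifs TTTCCCGC, TTTGGCGC, TTTCGCGC and TTTGCCGC, some of which overlap when placed on opposite strands. At least 1 match was present in 19 genes, or 39.6%, against 704 of the 27025 genes in the whole promoter table, or 2.6%. The genes of the whole promoter table were not matched to the replication genes in base composition. In Mcm3, Mcm8, Cdt1, Lig1, Pold1, Pole2 and E2f2 every match lay after the gene start. The match was most frequent among the MCM genes, at 5 of 7, and was found in 5 of 12 origin genes, 5 of 16 polymerase and fork genes, 3 of 6 E2F genes, 1 of 3 chromatin genes and 0 of 4 nucleotide genes. The CCAAT box was present in 30 of the 48 genes, or 62.5%, against 41.1% of all genes. A match describes letters in this window, and its absence says nothing about a factor. Windows around matches before the gene start are given for 6 members of 3 classes, on the strand of the gene, with the matches in capitals. Overlapping matches run together, as in Mcm5 and in the first match of Mcm6.
Mcm5, chr8:75109336-75109387, plus strand: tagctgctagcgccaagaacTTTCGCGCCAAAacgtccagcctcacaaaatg
Mcm6, chr1:128359725-128359835, minus strand: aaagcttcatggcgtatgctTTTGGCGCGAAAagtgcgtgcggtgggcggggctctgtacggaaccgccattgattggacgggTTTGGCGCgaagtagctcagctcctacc
Orc1, chr4:108579407-108579453, plus strand: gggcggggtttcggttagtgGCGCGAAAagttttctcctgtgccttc
Cdc6, chr11:98907993-98908040, plus strand: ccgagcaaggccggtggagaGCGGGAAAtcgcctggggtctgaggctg
Gins3, chr8:95633498-95633545, plus strand: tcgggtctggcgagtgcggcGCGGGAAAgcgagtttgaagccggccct
Pola1, chrX:93632266-93632313, minus strand: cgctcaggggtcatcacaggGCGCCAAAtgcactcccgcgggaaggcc
The median log2 difference between the populations was 0.25 in the 19 genes with an E2F-type match and 0.26 in the genes whose promoter held none.

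The replication genes lay slightly higher in LSC GFP+ cells as a group. The difference was positive in 50 of the 58 genes, or 86.2%, against 49.4% of all tested probes, and its median was 0.25, a 1.19-fold higher signal, against -0.0044 over all tested probes. The quartiles were 0.14 and 0.33 for the replication genes and -0.19 and 0.17 for all probes. Here and below, shares of all probes count every tested probe of the array, while each replication gene counts by its brightest tested probe. Typical single differences were close in size to their error, with a median standard error of 0.22 from limma beside the median difference of 0.25. These genes vary together within a sample, so their number is not a number of independent observations.

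With limma, 5 of the 58 genes, or 8.62%, were higher in LSC GFP+ cells at an unadjusted 0.05, against 3.38% of all tested probes, and 7.9% of all probes passed in either direction. They were Orc1, Cdt1, Dbf4, Pola2 and Rpa1. None was lower at that threshold, against 4.53% of all probes. The methods' t-test gave none lower either, nor did a limma fit blocked on the replicate number, in which 8.07% of all probes were lower. After adjustment over all tested probes 0 of the 58 passed, with 0.492 as the lowest adjusted p from limma, while 1 probe of the whole array, or 0.0027%, did. The count of 5 changed when single samples were left out, and so did the share of all probes. It was 6 without LSC GFP+ replicate 1, 1 without LSC GFP- replicate 1 and 3 without LSC GFP+ replicate 2. In these fits 3.39%, 2.54% and 2.45% of all probes were higher. The count was 0 without LSC GFP- replicate 2, 2 without LSC GFP+ replicate 3 and 8 without LSC GFP- replicate 3. In those fits 2.37%, 3.07% and 3.72% of all probes were higher. In the fit blocked on the replicate number, 11 genes, or 19.0%, were higher against 6.74% of all probes, and the 6 added were Chaf1a, Mcm4, Mcm5, Rpa2, Rrm1 and Rrm2.

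**Figure D1:**
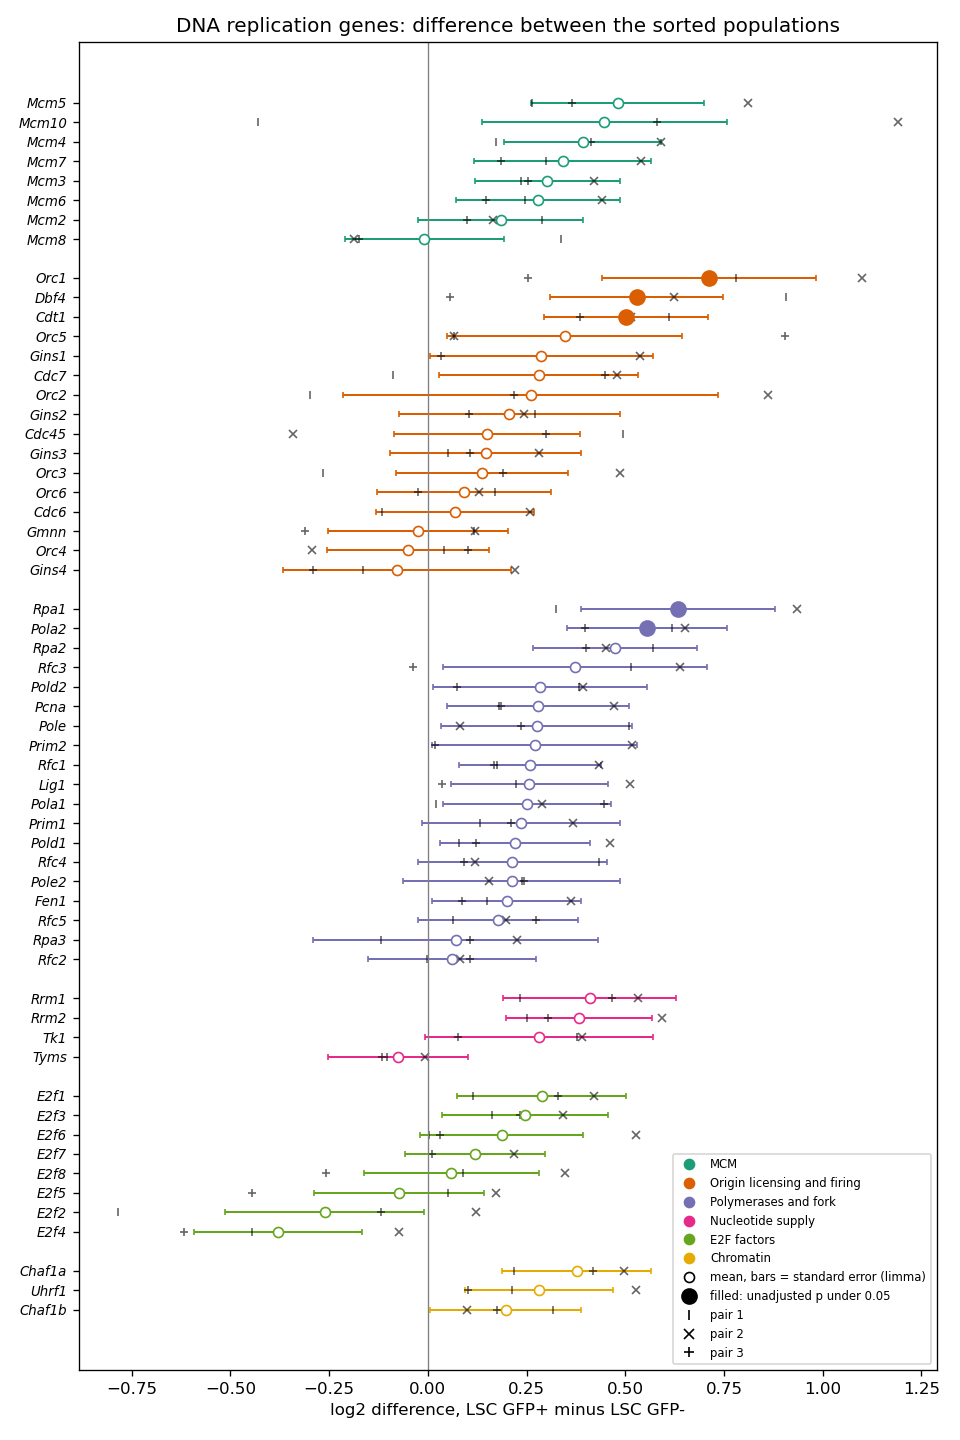
Log2 difference, LSC GFP+ minus LSC GFP-, of the 58 replication genes by class. Circles are the mean differences with their standard errors from limma, filled where the unadjusted p is under 0.05, and black signs are the 3 differences between samples of the same replicate number. The differences run from -0.38 for E2f4 to 0.71 for Orc1, and 50 of 58 lie right of 0.

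Samples were also compared pair by pair, matched by the replicate number in their titles. Correlations between the samples did not by themselves settle this matching. The median difference over the replication genes was 0.18, 0.39 and 0.14 in pairs 1, 2 and 3, against 0.09, -0.08 and 0.0024 over all tested probes. The number of genes higher in the LSC GFP+ sample of the pair was 47, 53 and 48 of 58. In 39 genes, or 67.2%, all 3 pairs went higher, against 21.4% of all tested probes. In 2 genes, Tyms and E2f4, all 3 pairs went lower, against 17.1% of all tested probes, and in 17 genes the pairs were mixed.

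Across the 6 samples the populations were not cleanly parted by these genes. The median deviation of the 58 genes from their own means was -0.05, 0.17 and 0.25 in LSC GFP+ replicates 1, 2 and 3, and -0.20, -0.21 and 0.06 in LSC GFP- replicates 1, 2 and 3. LSC GFP- replicate 3 was therefore above LSC GFP+ replicate 1, and each pair still differed in the same direction. Over all tested probes these deviations lay between -0.06 and 0.06. In 12 genes, or 20.7%, all LSC GFP+ samples were above all LSC GFP- samples, against 6.61% of all probes, and in 1 gene, E2f4, they were all below, against 5.65%.

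**Figure D2:**
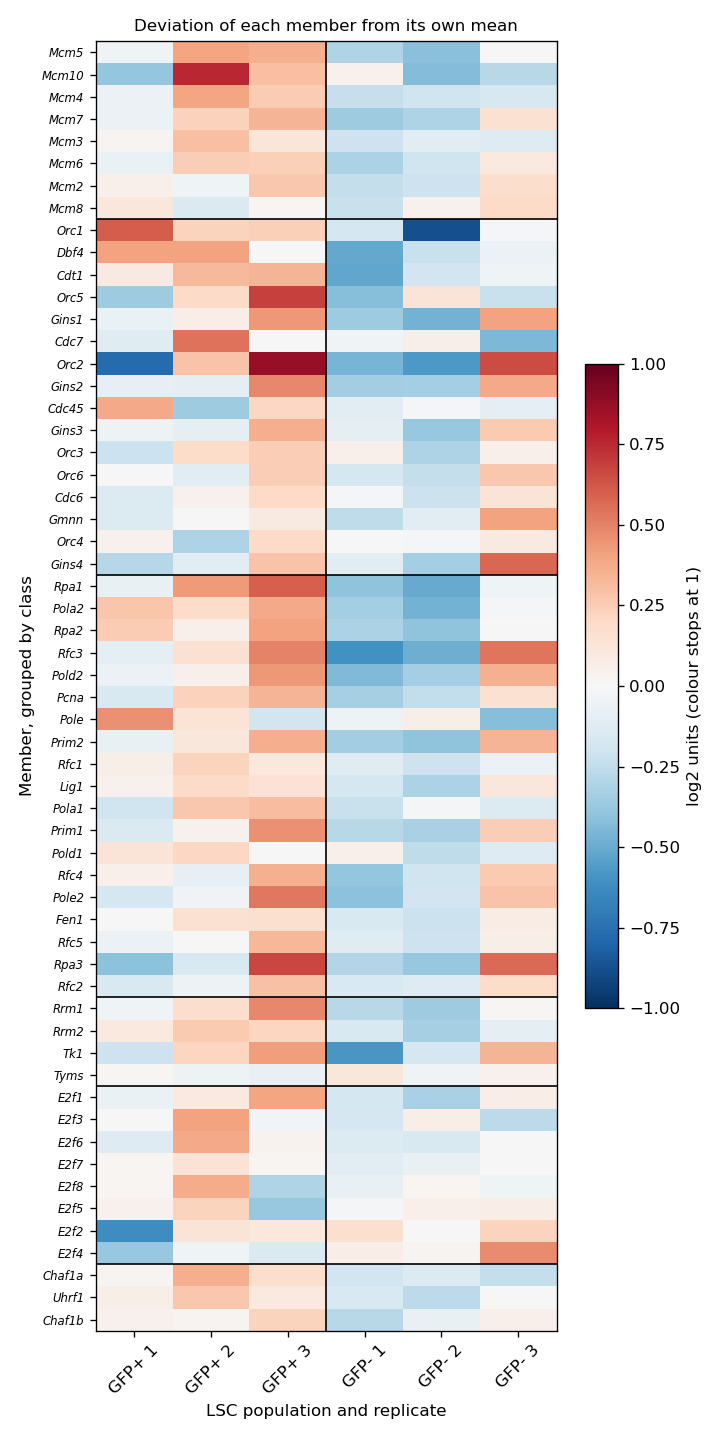
Deviation of each replication gene from its own mean over the 6 arrays, in log2 units, with genes as rows grouped by class and samples as columns. LSC GFP- replicates 1 and 2 are mostly below the mean, with medians of -0.20 and -0.21, while LSC GFP- replicate 3 has a median of 0.06.

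The genes of the MCM2 to MCM7 helicase, the ring that opens the double strand, were all higher in LSC GFP+ cells in each of the 3 pairs, with differences between 0.18 and 0.48 and a median of 0.32. Over all tested probes, 21.4% were higher in all 3 pairs. Mcm5 showed the widest difference of the ring. It had log2 signals of 2.45, 2.88 and 2.85 in LSC GFP+ cells and of 2.18, 2.07 and 2.48 in LSC GFP- cells. The populations overlapped through LSC GFP+ replicate 1 and LSC GFP- replicate 3, and the difference was 0.48 (standard error 0.22, adjusted p = 0.664 from limma), with a 95% interval from -0.02 to 0.99. Mcm4 had 4.43, 4.89 and 4.75 in LSC GFP+ cells and 4.26, 4.30 and 4.34 in LSC GFP- cells. Here the populations did not overlap, the LSC GFP- values lay within a narrow range, and the difference was 0.39 (standard error 0.20, adjusted p = 0.742 from limma). Mcm4 and Mcm5 were the genes of the ring that passed an unadjusted 0.05 in the blocked fit, with adjusted p of 0.327 and 0.291.

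Mcm3 had log2 signals of 3.55, 3.82 and 3.64 in LSC GFP+ cells and of 3.31, 3.40 and 3.39 in LSC GFP- cells, without overlap. Its second probe, which overlaps most of the first in position and so reads nearly the same sequence, gave a difference of 0.35 where the first gave 0.30. Mcm7 had 5.28, 5.57 and 5.68 against 4.98, 5.03 and 5.49, and Mcm6 had 5.29, 5.61 and 5.60 against 5.05, 5.16 and 5.46. In both genes LSC GFP- replicate 3 reached above LSC GFP+ replicate 1, and the differences were 0.34 (standard error 0.22) and 0.28 (standard error 0.21). Mcm2 had -0.56, -0.66 and -0.34 against -0.85, -0.82 and -0.44, which overlap and give the narrowest difference of the ring, 0.18 (standard error 0.21). None of Mcm2, Mcm3, Mcm6 and Mcm7 passed the unadjusted threshold in limma.

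**Figure D3:**
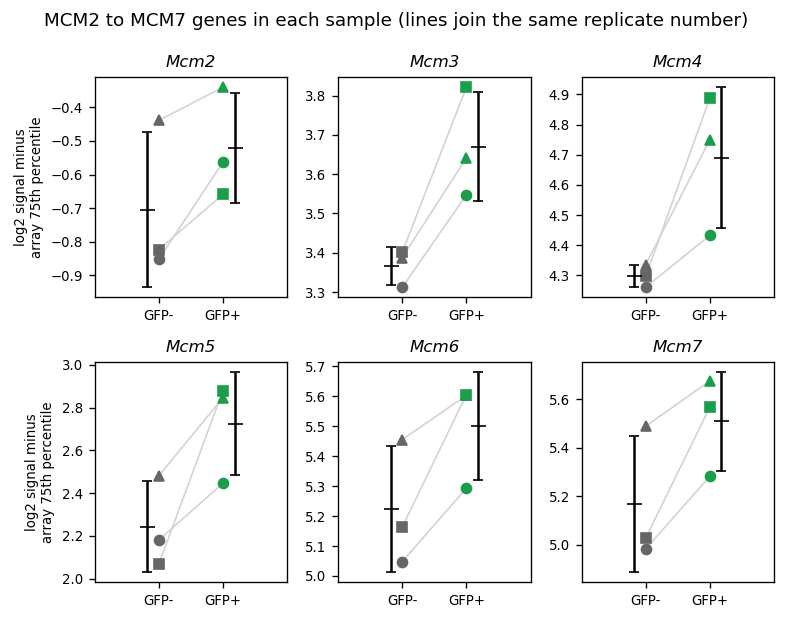
Log2 signal of Mcm2 to Mcm7 in each sample, relative to the 75th percentile of its array, on a separate scale for each gene. Circles, squares and triangles are replicates 1, 2 and 3, grey lines join samples of the same number, and black bars are the mean and SD of 3 samples; every line goes up from LSC GFP- to LSC GFP+ cells, and only Mcm3 and Mcm4 show no overlap.

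The 2 members of the class outside the ring differed from it in pattern. Mcm10, which helps start the fork, had a difference of 0.45 (standard error 0.31), but its pairs ran from -0.43 in pair 1 to 1.19 in pair 2. Mcm8, a helicase of DNA repair, had a difference of -0.01 (standard error 0.20).

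Among the genes that license and fire origins, Orc1, Cdt1 and Dbf4 were higher in LSC GFP+ cells at an unadjusted 0.05, and the median over the 16 genes was 0.18. Orc1, the subunit of the origin recognition complex that comes and goes with the cell cycle in mammalian cells, is read by a probe on chromosome 4 of mm9 from 108284772 to 108285679. Its log2 signals were -1.05, -1.42 and -1.41 in LSC GFP+ cells and -1.83, -2.52 and -1.66 in LSC GFP- cells. All LSC GFP+ samples were above all LSC GFP- samples, and LSC GFP- replicate 2 was by far the lowest. This amounts to 1.64-fold, or 0.71 on the log2 scale (standard error 0.27, adjusted p = 0.529 from limma). With normexp background correction this dim probe gave 0.42, the lowest of the 17 alternatives, and still passed the unadjusted threshold. Without LSC GFP- replicate 2, without LSC GFP+ replicate 1 or with the methods' t-test Orc1 no longer passed that threshold.

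Cdt1, which brings the MCM ring to the origin, is read on chromosome 8 of mm9 from 125096893 to 125096952. It had log2 signals of 0.46, 0.69 and 0.71 in LSC GFP+ cells and of -0.15, 0.18 and 0.32 in LSC GFP- cells. The populations did not overlap, and the difference was 0.50 (standard error 0.21, adjusted p = 0.601 from limma). Dbf4, the activating partner of the kinase Cdc7, is read on chromosome 5 of mm9 from 8397489 to 8397548. It had 0.07, 0.07 and -0.34 in LSC GFP+ cells and -0.84, -0.56 and -0.39 in LSC GFP- cells. The lowest LSC GFP+ sample lay just above the highest LSC GFP- sample, both of replicate 3, and the difference was 0.53 (standard error 0.22, adjusted p = 0.602 from limma). Leaving out 1 sample ended the unadjusted call of Cdt1 in 4 of 6 cases and that of Dbf4 in 4 of 6 cases. The call of Cdt1 was also lost under scaling by the array median, and both calls without a filter on dim probes.

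Other genes of origin licensing differed little. Cdc6, the partner of Cdt1 in loading the ring, had log2 signals of 0.96, 1.14 and 1.30 in LSC GFP+ cells and of 1.08, 0.88 and 1.23 in LSC GFP- cells. These ranges overlapped almost wholly, and the difference was 0.07 with a 95% interval from -0.39 to 0.53. Gmnn, which encodes geminin, the inhibitor of Cdt1, had a difference of -0.03 (standard error 0.23). The subunits Orc2 to Orc6 had differences between -0.05 and 0.35, and 4 of the 6 ORC subunits had mixed pairs. The second probe of Orc4 gave -0.38 where the brighter one gave -0.05.

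Of the factors that fire the origin, Cdc7 had a difference of 0.28 at its brighter probe and -0.03 at the other. Cdc45 had a difference of 0.15 (standard error 0.24) with a lower LSC GFP+ value in pair 2. The GINS complex, which holds the moving helicase together with Cdc45, showed small differences from -0.08 for Gins4 to 0.29 for Gins1. Gins1, Gins2 and Gins3 were higher in LSC GFP+ cells in all 3 pairs, and none of the 4 passed the unadjusted threshold.

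All 19 genes of the polymerases and fork proteins had a positive difference, between 0.06 and 0.63 with a median of 0.26, and in 16 of them all 3 pairs went higher. Over all tested probes, 49.4% had a positive difference and 21.4% were higher in all 3 pairs. Pola2, the accessory subunit of the polymerase alpha-primase complex that starts each new strand, passed the unadjusted threshold and is read on chromosome 19 of mm9 from 5946484 to 5946543. Its log2 signals were -2.10, -2.19 and -1.99 in LSC GFP+ cells and -2.72, -2.84 and -2.39 in LSC GFP- cells. All LSC GFP+ samples lay above all LSC GFP- samples, of which replicate 3 came nearest, and the difference was 0.56 (standard error 0.20, adjusted p = 0.492 from limma). With normexp background correction the difference of this dim probe was 0.16 and its call was lost, as it was when either replicate 1 or replicate 2 of the LSC GFP- samples, or replicate 3 of the LSC GFP+ samples, was left out. The other members of the complex, Pola1, Prim1 and Prim2, had differences of 0.25, 0.24 and 0.27, and all 3 were higher in each pair.

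Rpa1, the large subunit of the protein that coats single-stranded DNA, is read on chromosome 11 of mm9 from 75114060 to 75114119. It had log2 signals of 2.74, 3.24 and 3.41 in LSC GFP+ cells and of 2.41, 2.31 and 2.77 in LSC GFP- cells. LSC GFP- replicate 3 was slightly above LSC GFP+ replicate 1, and every pair went higher. The difference was 0.63 (standard error 0.25, adjusted p = 0.547 from limma), or 1.55-fold, and a second probe of Rpa1 gave 0.61 and also passed the unadjusted threshold. Leaving out 1 sample ended the call of the brighter probe in 4 of 6 cases, and median scaling and the methods' t-test ended it too. Rpa2 had 1.12, 0.91 and 1.27 against 0.55, 0.46 and 0.86, without overlap. Its difference of 0.47 (standard error 0.21) missed the threshold, with an adjusted p of 0.641 from limma. Rpa3, the small subunit, had a difference of 0.07 (standard error 0.36) with mixed pairs.

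**Figure D4:**
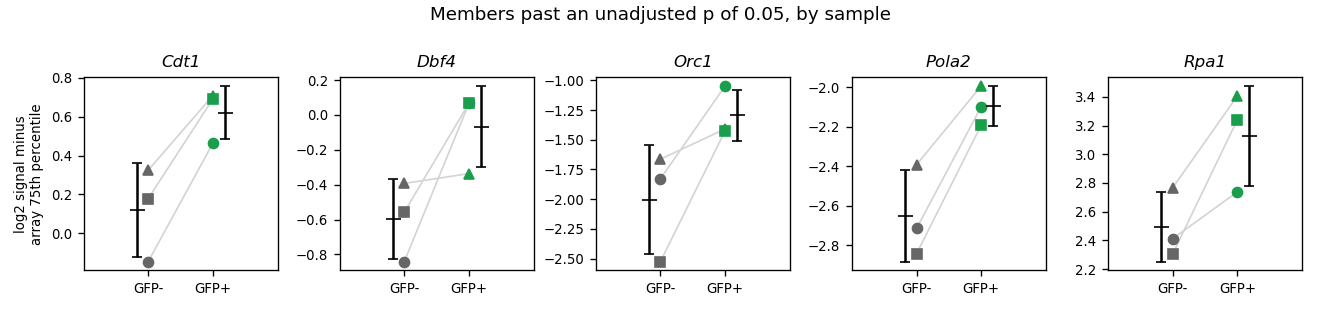
Log2 signal of the 5 replication genes past an unadjusted 0.05, in each sample and relative to the 75th percentile of its array, on a separate scale for each gene. Circles, squares and triangles are replicates 1, 2 and 3, grey lines join the same number, and black bars are the mean and SD of 3 samples; every line goes up, and Rpa1 is the gene whose populations overlap.

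The subunits of the replicative polymerases delta and epsilon had differences of 0.22 for Pold1, 0.28 for Pold2, 0.28 for Pole and 0.21 for Pole2, and each was higher in all 3 pairs. A second, dimmer probe of Pole gave -0.14 (standard error 0.37). Pcna, the sliding clamp, had log2 signals of 3.58, 3.96 and 4.07 in LSC GFP+ cells and of 3.40, 3.49 and 3.89 in LSC GFP- cells. These overlapped, the 3 pairs went higher, and the difference was 0.28 (standard error 0.23, adjusted p = 0.960 from limma). The 5 subunits of the clamp loader RFC had differences from 0.06 for Rfc2 to 0.37 for Rfc3, and Rfc1 was the subunit without overlap. Fen1 and Lig1, which trim and seal the fragments of the lagging strand, had differences of 0.20 and 0.26.

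Of the nucleotide genes, the subunits of ribonucleotide reductase, which makes deoxyribonucleotides, had the wider differences. Rrm2 had log2 signals of 1.60, 1.76 and 1.72 in LSC GFP+ cells and of 1.34, 1.17 and 1.41 in LSC GFP- cells. The populations did not overlap, and the difference was 0.38 (standard error 0.18, adjusted p = 0.709 from limma). Rrm1 had a difference of 0.41 (standard error 0.22), and Rrm1 and Rrm2 passed the unadjusted threshold with the replicate block. Tk1, the thymidine kinase of S phase, had 0.56, 0.98 and 1.18 against 0.19, 0.59 and 1.11. Its values spread widely within both populations, and the difference was 0.28 (standard error 0.29). Tyms, the thymidylate synthase, differed from the other 3 in sign, with values of -0.77, -0.83 and -0.85 against -0.66, -0.82 and -0.73 and a difference of -0.08, with a 95% interval from -0.49 to 0.34.

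The E2F factors were the most mixed class, with 5 of 8 differences positive, against 49.4% of all tested probes, and a median of 0.09. E2f1, an activator of S phase genes, had log2 signals of 1.05, 1.21 and 1.51 in LSC GFP+ cells and of 0.94, 0.79 and 1.18 in LSC GFP- cells. The populations overlapped, each pair went higher, and the difference was 0.29 (standard error 0.21, adjusted p = 0.926 from limma). The other activators went apart in sign, with 0.25 for E2f3, also higher in all pairs, and -0.26 for E2f2, whose pair 1 stood at -0.79. The repressors of the later cell cycle, E2f7 and E2f8, had 0.12 and 0.06, and E2f6, a repressor as well, had 0.19.

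E2f4, a factor of resting cells that acts mostly as a repressor, was the lowest difference of the set. It had log2 signals of -3.38, -3.04 and -3.14 in LSC GFP+ cells and of -2.93, -2.97 and -2.52 in LSC GFP- cells. All LSC GFP+ samples were below all LSC GFP- samples, and the difference was -0.38 (standard error 0.21, adjusted p = 0.804 from limma), which did not pass the unadjusted threshold. E2f4 had the dimmest representative probe of the set, and with normexp background correction its difference was -0.24. E2f5, its close relative, had -0.07 (standard error 0.22).

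The 3 chromatin genes had positive differences in every pair, as had 21.4% of all tested probes. Chaf1a and Chaf1b, which encode subunits of the factor that places histones on new DNA, had 0.38 and 0.20, and Chaf1a showed no overlap. Uhrf1, which helps to carry DNA methylation to the new strand, had log2 signals of 4.23, 4.44 and 4.27 in LSC GFP+ cells and of 4.02, 3.91 and 4.17 in LSC GFP- cells at its brighter probe. These did not overlap, with a difference of 0.28 (standard error 0.19). The dimmer probe of Uhrf1 gave a difference of 0.57 (standard error 0.23) and passed the unadjusted threshold of limma, so its call depended on the probe.

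Other genes of replication outside the set were examined from a list of 40 names, of which 38 were tested. Their median difference was 0.24, and 34 of 38 were positive, against 49.4% of all tested probes. At an unadjusted 0.05 in limma 6, or 15.8%, were higher against 3.38% of all probes. At that threshold 0 were lower, against 4.53%, and 0 passed after adjustment over all probes. The 6 were Clspn (0.71), which mediates the replication checkpoint, Recql4 (0.67) and Mcm9 (0.63), both helicases, Atad5 (0.57), which unloads Pcna, Chtf18 (0.50), of an alternative clamp loader, and Dnmt1 (0.45), the maintenance DNA methyltransferase. Clspn had log2 signals of -2.02, -1.66 and -2.14 in LSC GFP+ cells and of -2.51, -2.83 and -2.62 in LSC GFP- cells. Recql4 had 1.30, 1.50 and 0.64 against 0.48, 0.72 and 0.22, and Mcm9 had 0.75, 0.86 and 0.62 against -0.07, 0.10 and 0.30. In Clspn and Mcm9 the populations were parted, while in Recql4 LSC GFP+ replicate 3 was below LSC GFP- replicate 2. Atad5 had 0.38, 0.72 and 0.09 against -0.10, -0.05 and -0.36, Chtf18 had 0.68, 0.94 and 0.65 against 0.39, 0.30 and 0.08, and Dnmt1 had -0.53, -0.79 and -0.79 against -1.18, -1.06 and -1.21. The populations of all 6 genes except Recql4 did not overlap. Over the 38 genes, 9, or 23.7%, had all LSC GFP+ samples above all LSC GFP- samples, against 6.61% of all probes. In the blocked fit 10 of the 38, or 26.3%, were higher against 6.74% of all probes, with Dut, Exo1, Rnaseh2a and Topbp1 added. The value of Dna2, 0.25, was fitted without LSC GFP- replicate 2, whose spot was marked as an outlier.

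**Figure D5:**
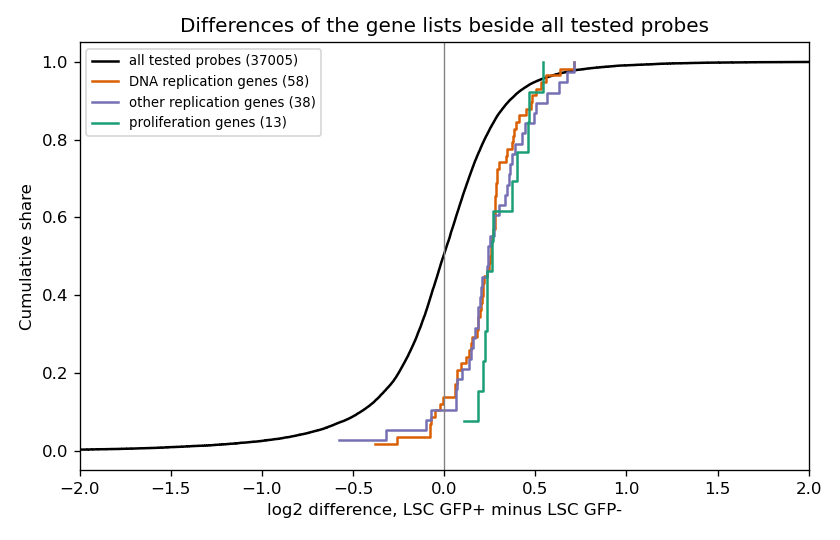
Cumulative share of log2 differences, LSC GFP+ minus LSC GFP-, for the 58 replication genes, 38 other replication genes, 13 proliferation genes and all 37005 tested probes. The horizontal axis is drawn from -2 to 2, beyond which some probes lie. The medians are 0.25, 0.24, 0.26 and -0.0044.

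Genes of proliferation more broadly were read from a list of 15 names, of which 13 were tested. All 13 had a positive difference, against 49.4% of all tested probes, with a median of 0.26. Higher at the unadjusted threshold was 1 gene, or 7.69%, against 3.38% of all probes. This was Top2a, the topoisomerase of S phase and mitosis, which had log2 signals of 0.48, 0.40 and 0.28 in LSC GFP+ cells and of -0.06, -0.35 and -0.07 in LSC GFP- cells. The difference was 0.54 (adjusted p = 0.468 from limma), and the populations did not overlap. Mki67, which encodes the Ki-67 antigen, had 3.72, 3.94 and 3.63 against 3.55, 3.57 and 3.45, also without overlap, and its difference of 0.24 did not pass. Over the 13 genes, 38.5% had all LSC GFP+ samples above all LSC GFP- samples, against 6.61% of all probes. In the blocked fit the proliferation genes past the unadjusted threshold were Bub1, Ccnb1, Cdk2, Foxm1 and Top2a. They were 38.5% of the list, against 6.74% of all probes.

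Markers of basal, smooth muscle and stromal cells also differed between the populations. At the brightest tested probe all 10 basal markers had a positive difference and 6 passed the unadjusted threshold, or 60% against 3.38% of all probes. Dimmer tested probes gave -0.72 for Dst, 0.85 for Krt5, and 0.62 and -0.73 for Trp63. The summed level of the 10 markers, relative to the 75th percentile of the array, was 231 to 248 in LSC GFP+ samples and 173 to 183 in LSC GFP- samples. All 6 smooth muscle markers were lower in LSC GFP+ cells and passed the unadjusted threshold, where 4.53% of all probes were lower. Their summed levels were 6.43 to 10.1 against 19.7 to 38.8. Of 7 stromal markers tested, 5 were lower (Col1a1, Col1a2, Col3a1, Lum and Pdgfra) and 2 higher (Dcn and Fbln1), with summed levels of 23.1 to 30.0 against 23.0 to 59.4. No endothelial, leukocyte or glial and neuronal marker passed the unadjusted threshold in limma, with 4, 5 and 4 tested. In the blocked fit the glial and neuronal markers Sox10 and Tubb3 were lower in LSC GFP+ cells at that threshold. The part of these differences in those of the replication genes was not tested.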

How the data were processed

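The 2 sorted populations, with 3 samples each, were measured on 6 one-colour Agilent arrays, all on 1 slide and scanned in 1 run. Per the file headers, the deposited intensity values come from Feature Extraction 11.0.1.1 (the submitters' processing notes name 10.7.3.1) and are linear signals with the background subtracted and no normalization between arrays. The deposited table of the whole series holds the same intensity values, rounded. Probe positions are those of mm9 in the array design. Between 36651 and 42123 probes were well above background per array, and no spot was saturated.

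After a log2 transform, each array's 75th percentile was subtracted, 123 to 154 outlier spots per array were left out, and spots of a probe were averaged. Probes with a signal well above background in every sample of one population or of both entered the two-sided test (limma 3.58.1, lmFit and eBayes, R 4.3.3), with Benjamini-Hochberg adjustment over all 37005 probes. Each gene was represented by its brightest tested probe. The scripts were tested on simulated data. Of the 73 probes, 69 had an accession in the RefSeq table, each with the same symbol.

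With 3 arrays a population precision is limited, and the smallest two-sided p of an exact permutation test is 0.1. The samples are described as independent collections, with no animals named. The p-values therefore set a difference against the spread between these samples, which limma estimates with the help of all tested probes. The main fit took no account of the replicate numbers. Deviations of samples with the same replicate number correlated across probes at 0.43, 0.28 and 0.67, all above the minimum of 0.1 that was set. Correlations between samples of unlike number ran from -0.55 to 0.22. The value of 0.22, between the first LSC GFP+ sample and the second LSC GFP- sample, exceeded 0.1 too and lay close to 0.28. The minimum therefore did not by itself tell matched from unmatched samples. The pairs rest on the numbers in the sample titles, and the pair-by-pair and blocked results depend on them. The replicate block, other scalings, background correction, filters and tests, and leaving out each sample were alternatives. The members and lists were chosen with earlier results of these data known. Values by sample are given for replication and proliferation genes past an unadjusted 0.05, for Mcm2 to Mcm7, Pcna, Rrm2, Tk1, E2f1, Cdc6, Uhrf1, Mki67 and Top2a, and for a few chosen after their values were seen (Rpa2, Tyms and E2f4). The luminal marker list is not reported here.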

Additional observations from a re-analysis of the deposited data

How the results depend on the processing

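The count of replication genes higher in LSC GFP+ cells at an unadjusted 0.05 was 5. It was 9 with normexp background correction, 7 with quantile normalization, 3 under scaling by the array median and 3 without a filter on dim probes. The shares of all probes so called were 3.37%, 4.51%, 3.98% and 2.26%, against 3.38% in the main fit. The count was 10 with the methods' t-test, 8 with an intensity trend in limma and 11 with the replicate block. Under these settings 4.27%, 3.55% and 6.74% of all probes were higher. Leaving out 1 sample gave 0 to 8, with 2.37% to 3.72% of all probes higher. No gene was lower at that threshold and none passed after adjustment over all probes in limma or the methods' t-test, under any of the 17 alternatives run. The median difference stayed between 0.16 and 0.33, with 46 to 53 of 58 genes positive. The replicate block added the unadjusted calls of 6 of the 58 replication genes and ended none of the 5. A slide block was not run, since all arrays share 1 slide.

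Genes whose difference changed sign were never past the threshold. Quantile normalization turned Mcm8 to 0.055, and median scaling turned Mcm8, Gmnn and Orc4 to 0.060, 0.044 and 0.019. Leaving out 1 sample turned the sign at least once in 13 genes, whose values over those fits ranged from -0.12 to 0.086 for Mcm8, -0.0011 to 0.37 for Cdc45, -0.020 to 0.16 for Cdc6, -0.0055 to 0.31 for Gins3, -0.27 to 0.19 for Gins4, -0.16 to 0.17 for Gmnn, -0.11 to 0.71 for Orc2, -0.16 to 0.092 for Orc4, -0.0086 to 0.25 for Orc6, -0.070 to 0.17 for Rfc2, -0.25 to 0.37 for Rpa3, -0.20 to 0.096 for E2f5 and -0.11 to 0.22 for E2f8. The causes were not tested. With 3 samples a population and a median standard error of 0.22, single differences near the median of 0.25 cannot be told from none.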
